A study of Mus musculus with 6 samples.

Results

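The genes described here are 7 transcription factor genes of epithelial lineage and stem cell identity: Trp63, Sox2, Sox4, Ehf, Elf3, Grhl2 and Myc. They were taken by name, and every region of the deposited list whose centre lay inside one of these genes or within 100 kb of it was assigned to them. That gave 15 of the 6502 listed regions, at 6 of the 7 genes.

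The study profiled open chromatin by ATAC-seq, in which a transposase inserts sequencing adapters where DNA is exposed. The cells were epithelial basal stem cells from mouse prostate, sorted fresh as CD45-CD31-Sca-1+CD49f+. The 3 inflamed libraries carry the genotype label POET3, a transgenic mouse whose prostate makes ovalbumin. Those mice received pre-activated OT-1 splenocytes and were sampled after 7 days. The 3 naive libraries carry the genotype label WT, although the extraction protocol names POET3 mice for both groups, so inflammation and labelled genotype cannot be told apart. The age of the animals and any pooling are not given in the sources used here. The deposited list has positions only, in genome build mm10, and was read as a merged list of regions that differ between inflamed and naive cells. It carries no signal, direction, p-value or value per library. The direction of change in inflamed cells is therefore unknown for each region, no replicate error exists, the sorted cell type cannot be checked against marker levels, and depth is unknown. All but 1 of the listed regions are either 143 or 451 bases wide, and the meaning of these widths is not given in the sources used here.

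p63, the product of Trp63, is the lineage factor of basal cells in stratified and glandular epithelia and is required for normal prostate development. Its gene has an outer and an internal promoter, which give proteins with and without the full activation domain. SOX2 and SOX4 are HMG-box factors of stem and progenitor cells, EHF and ELF3 are ETS factors largely restricted to epithelia, GRHL2 is a grainyhead factor that keeps cell junction genes active, and MYC is a bHLH factor that drives growth together with its partner MAX. Enhancers of such developmental genes often lie far from the gene, in stretches poor in other genes.

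Reference sequence was at hand for the start of Sox2, Sox4 and Elf3. It is shown because no listed region touched any of these promoters. Each line gives the 250 bases before the annotated start, 5′ to 3′ on the gene's strand, from RefSeq (GRCm38.p6). They lie at chr3:34649745-34649994 on the plus strand for Sox2, chr13:28953700-28953949 on the minus strand for Sox4 and chr1:135258473-135258722 on the minus strand for Elf3. Capitals mark matches to the motif strings given in the next paragraph.
Sox2: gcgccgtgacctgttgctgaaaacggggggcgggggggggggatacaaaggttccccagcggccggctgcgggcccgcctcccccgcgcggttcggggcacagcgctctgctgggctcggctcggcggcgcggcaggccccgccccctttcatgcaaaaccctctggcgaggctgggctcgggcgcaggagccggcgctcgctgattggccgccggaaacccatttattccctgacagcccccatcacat
Sox4: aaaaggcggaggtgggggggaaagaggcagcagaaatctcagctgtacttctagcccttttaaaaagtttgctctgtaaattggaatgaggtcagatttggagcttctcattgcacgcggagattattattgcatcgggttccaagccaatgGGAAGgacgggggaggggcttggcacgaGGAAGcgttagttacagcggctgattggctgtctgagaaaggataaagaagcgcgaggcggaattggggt
Elf3: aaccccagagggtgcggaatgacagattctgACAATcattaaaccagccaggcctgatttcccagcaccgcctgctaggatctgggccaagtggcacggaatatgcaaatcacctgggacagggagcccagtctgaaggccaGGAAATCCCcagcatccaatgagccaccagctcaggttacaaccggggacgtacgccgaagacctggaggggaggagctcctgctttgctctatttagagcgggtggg

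These stretches were searched on both strands for the E-box CACGTG, the ETS core GGAAG, the grainyhead string AACCNGTT, the SOX core ACAAT, the AP-1 string TGANTCA, the NF-kB string GGGNNTTCC and the p63 decamer. The ETS and NF-kB strings can overlap, and none of the matches shown did. The Sox2 stretch, with a GC content of 72.0%, held none of the 7 strings. The Sox4 stretch (50.8% GC) held 2 ETS cores, which began 98 and 70 bases before the start. The Elf3 stretch (57.2% GC) held a SOX core that began 219 bases before the start and 1 NF-kB match on the opposite strand that began 108 bases before it. Across all 32851 promoter stretches of this length, the ETS core was found in 64.1%, the SOX core in 27.7%, the p63 decamer in 7.13%, the AP-1 string in 6.75%, the E-box in 6.02%, the NF-kB string in 4.98% and the grainyhead string in 1.79%. A match is a run of letters and not a measured binding site.

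Of the 7 genes, 6 had at least 1 listed region in the span or within 100 kb, and across all protein-coding genes that share was 42.7% (9343 of 21887). The count rises with gene length, so the shares by span are also given. Of the 4 members with spans up to 10 kb (Sox2, Sox4, Elf3 and Myc), 3 had a region, against 31.6% of all coding genes that short. All 3 longer members (Trp63, Ehf and Grhl2) had one, against 49.0% of all longer coding genes. The members had a mean of 2.14 regions and a median of 2, against a mean of 0.727 and a median of 0 over all coding genes. Members were chosen by name with earlier results known, so these counts describe them and carry no test.

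Trp63 had 6 regions, Myc 3, Ehf and Grhl2 2 each, Sox2 and Sox4 1 each and Elf3 none. Over all coding genes, 0.402% had 6 or more regions in this window and 7.47% had 3 or more. The 7 windows together cover 1.80 Mb and held 8.35 regions per Mb, and the whole list has 2.41 regions per Mb of annotated chromosome. Trp63 (14.7 per Mb) and Myc (14.6 per Mb) were the densest members, and 2.31% and 2.41% of coding genes were at least that dense. Ehf followed at 8.34 per Mb, Grhl2 at 6.05, Sox2 at 4.94 and Sox4 at 4.88. For the other 4 members with regions, 12.8% to 20.7% of coding genes were at least as dense.

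**Figure D1:**
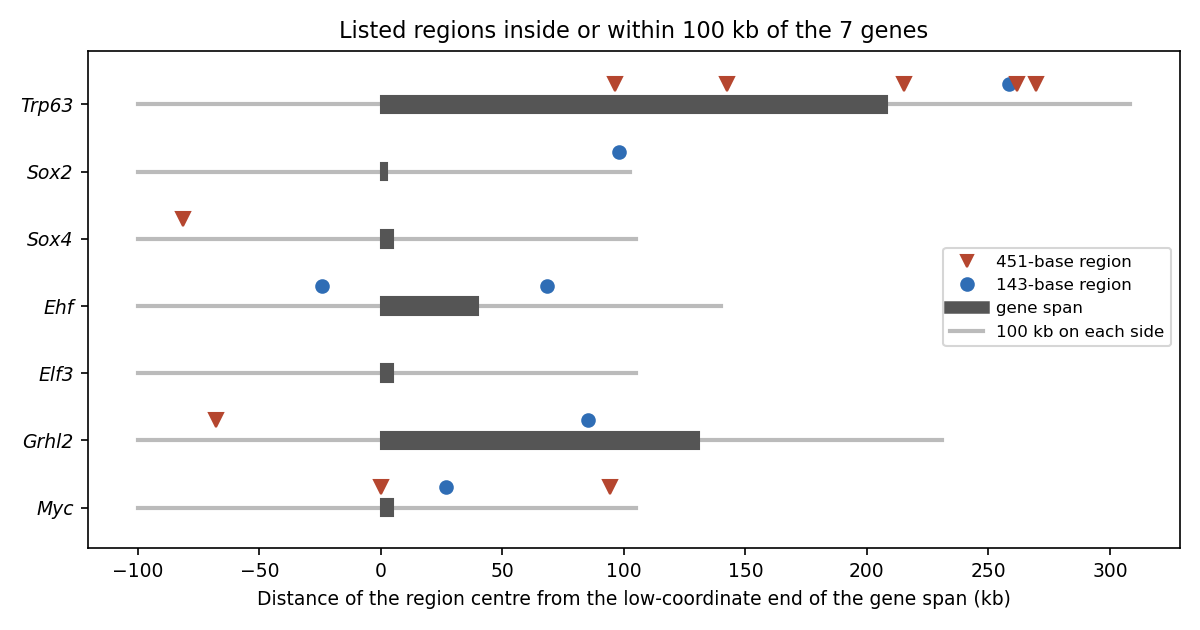
Listed regions at the 7 genes, one gene per row, with the distance of each region centre from the low-coordinate end of the gene span in kb. Dark bars are gene spans, light lines the 100 kb on each side, triangles 451-base and circles 143-base regions, and Trp63 has 6 regions, none of them in the first 96.5 kb of its span, and Elf3 has none.

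Of the 15 regions, 3 lay inside a member gene, 8 beyond its high-coordinate end and 4 beyond its low-coordinate end. A region inside the span was found at 2 members, Trp63 and Grhl2, and at 10.2% of coding genes. Trp63 spans 208 kb and Grhl2 131 kb, against a median of 17.2 kb over all coding genes, and the 10.2% is not matched for length. Within 10 kb, 3 members had a region, those 2 and Myc, against 15.2% of coding genes. The gene table gives spans without exons, so exonic and intronic positions were not told apart.

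**Figure D2:**
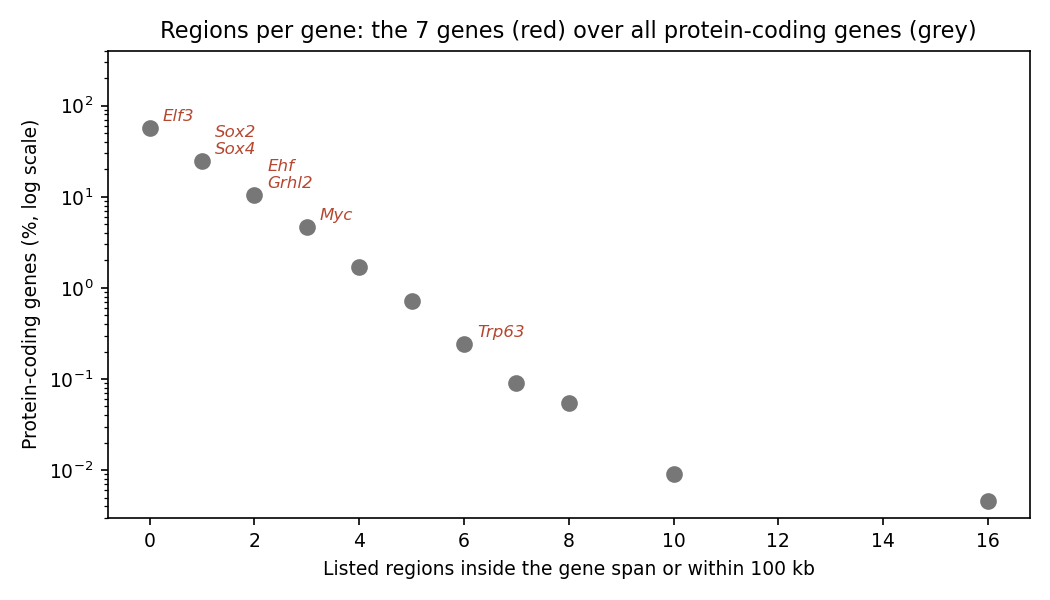
Percentage of all 21887 protein-coding genes (grey points, log scale) with each number of listed regions inside the span or within 100 kb; counts that no gene reached are not drawn. The 7 genes are named in red at their own count, from Elf3 at 0 to Trp63 at 6.

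Trp63 (NCBI gene 22061) spans 208 kb of chromosome 16, from 25683763 to 25892088. It held 2 regions inside its span, both of 451 bases. The first, at chr16:25780076-25780526, was 96.5 kb above the low end of the gene, and the other, at chr16:25825998-25826448, was 142 kb above it. The first 96.5 kb of the span, including its low end, therefore held no listed region. A further 451-base region lay 7.12 kb beyond the high end, at chr16:25898988-25899438. For these 3 regions Trp63 was the nearest coding gene. The gene table has no internal start, so the place of the regions relative to the internal promoter was not measured.

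The remaining 3 regions of the Trp63 window formed a tight group in the stretch between Trp63 and P3h2, which encodes a collagen-modifying prolyl hydroxylase. A 143-base region lay 50.3 kb beyond Trp63 (chr16:25942348-25942490), a 451-base region 53.4 kb beyond it (chr16:25945214-25945664) and another of 451 bases 61.3 kb beyond it (chr16:25953173-25953623). Their centres were 3.02 and 7.96 kb apart, whereas the other gaps between neighbours in this window ran from 43.2 to 73.0 kb. All 3 were nearer to P3h2, at 16.9, 13.8 and 5.89 kb, than to Trp63. They are the only 3 of the 15 regions whose nearest coding gene was not the member itself, and the list does not say to which gene they relate.

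Neither SOX gene had a region near its body, and each had a single distant one. Sox2 (NCBI gene 20674) is a 2.47 kb gene at 34649995 to 34652461 on chromosome 3. Its 143-base region, at chr3:34747897-34748039, was 95.5 kb beyond the 3′ end of the gene and just inside the 100 kb limit. It was the only listed region within 500 kb of Sox2, and the next ones were 694 kb below and 1336 kb above the gene. No other coding gene reaches into the Sox2 window, and Sox2 was the nearest coding gene of this region. Gm38509, a gene not annotated as protein-coding, was closer to the region, at 24.1 kb.

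Sox4 (NCBI gene 20677) is a 4.78 kb gene at 28948919 to 28953699 on chromosome 13, on the minus strand. Its 451-base region, at chr13:28867191-28867641, lay 81.5 kb beyond the 3′ end, inside the long noncoding RNA gene 2610307P16Rik. Sox4 was its nearest coding gene. Another 451-base region (chr13:28838245-28838695) was 28.9 kb farther out and fell just outside the limit, 110 kb from Sox4. The wider surroundings differed between the SOX genes: 9 regions lay within 500 kb of Sox4, with Sox4 the nearest coding gene for 5 of them, and 1 within 500 kb of Sox2. Of all coding genes, 3.43% had 9 or more within that distance and the median was 2.

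Ehf had a region on each side, and Elf3 had none in its window. Ehf (NCBI gene 13661) spans 39.8 kb of chromosome 2, from 103263431 to 103303275, and both of its regions were 143 bases wide. One lay 24.2 kb below it (chr2:103239155-103239297) and one 28.6 kb above it (chr2:103331832-103331974). Ehf was the nearest coding gene of both. The region above also lay 6.70 kb from A930006I01Rik, a gene not annotated as protein-coding. The ETS gene Elf5 was 80.2 kb away from it.

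Elf3 (NCBI gene 13710), a 4.90 kb gene at 135253574 to 135258472 on chromosome 1, was the only member with none. The nearest listed region was 604 kb above it, close to the desmosomal gene Pkp1, and the nearest below was 1186 kb away, near Btg2. Across all coding genes, 18.1% had no region within 500 kb. Elf3 was also the member in the most crowded stretch, with 5 other coding genes reaching into its window, against 0 to 2 for the other members and a median of 4 over all coding genes. An empty window says that no region there entered the list. It gives no level of accessibility at Elf3.

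Grhl2 (NCBI gene 252973) spans 131 kb of chromosome 15, from 37232821 to 37363569, and had 1 region of each width. The 143-base region lay inside the gene at chr15:37318020-37318162, 85.3 kb above its low end. The 451-base region was 68.0 kb below the gene (chr15:37164559-37165009), where the long noncoding RNA genes Gm41302 and Gm34820 overlap. Grhl2 was the nearest coding gene of both. Within 500 kb it had 3 regions, a number that 47.3% of coding genes reached.

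Myc was the only member with a region at an end of its span. Myc (NCBI gene 17869) is a 5.02 kb gene at 61985341 to 61990361 on chromosome 15. A 451-base region, chr15:61985055-61985505, lay across its low-coordinate end, with 165 bases inside the gene, 286 outside and its centre 61 bases outside. A region centre within 1 kb of either end was found at 3.75% of coding genes. The other Myc regions were a 143-base one 21.6 kb above the gene (chr15:62011893-62012035) and a 451-base one 89.1 kb above it (chr15:62079223-62079673). The last lay inside Pvt1, a long noncoding RNA gene of 222 kb next to Myc (62037986 to 62260215). Pvt1 held 5 listed regions, all of 451 bases. The next one, at chr15:62092511-62092961, was 102 kb from Myc and fell just outside the limit.

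Within 500 kb, Myc had 14 regions, 5 below and 9 above, and 13 of them were 451 bases wide. Of all coding genes, 0.461% had as many. Myc was the nearest coding gene of all 14, and no other coding gene reached into its 100 kb window. Trp63 had 13 within 500 kb, matched or passed by 0.754% of coding genes, but was the nearest coding gene of only 3 of these. The Trp63 window holds part of 1 other coding gene.

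**Figure D3:**
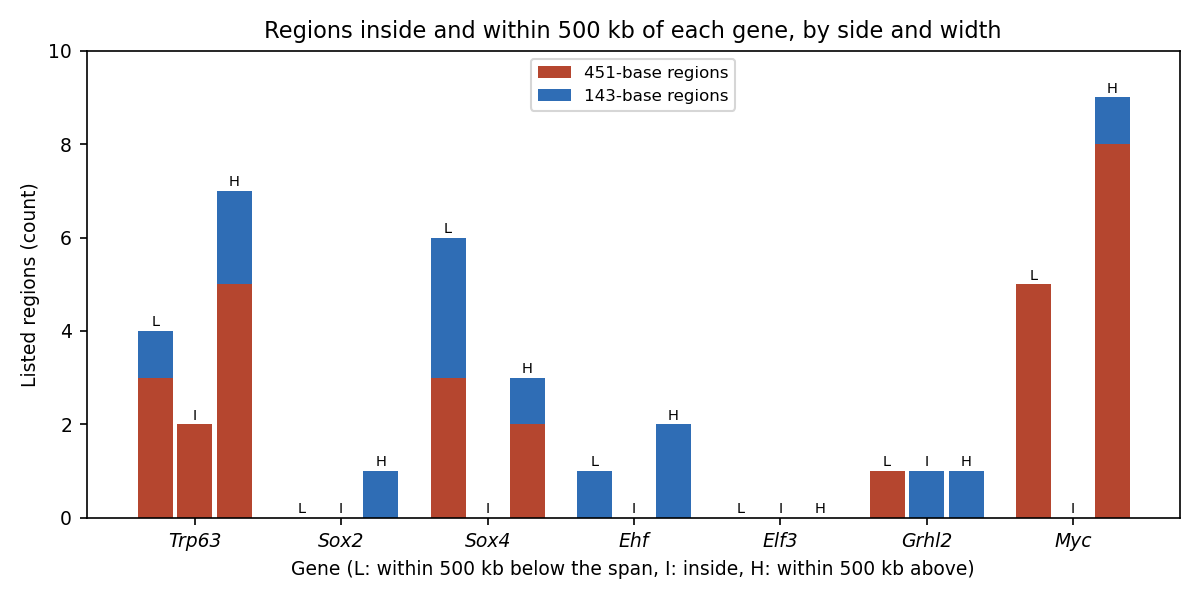
Number of listed regions inside each of the 7 genes and within 500 kb on each side, stacked by width. L, I and H mark the side below the gene, the gene itself and the side above; Myc has 5, 0 and 9, Trp63 4, 2 and 7, and Elf3 none.

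Of the 15 member regions, 9 (60.0%, exact Clopper-Pearson 95% interval 32.3 to 83.7, counting error only) were 451 bases wide and 6 were 143 bases wide. In the other 6487 regions of the list, 50.6% were 451 bases wide, a share inside that interval. The interval treats the 15 regions as independent, which regions at the same gene are not, so a difference in widths was not tested. By gene, 5 of 6 regions at Trp63, 2 of 3 at Myc, 1 of 2 at Grhl2 and the single one at Sox4 were 451 bases wide. Both at Ehf and the single one at Sox2 were 143 bases wide. Regions at 1 gene share a locus and are not replicates of each other.

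For 12 of the 15 regions a member was the nearest coding gene. In all, 6 of the 7 members were the nearest coding gene of at least 1 region, against 18.0% of all coding genes. They are the same 6 that had a region in their window. No other coding gene reached into the windows of Sox2, Sox4, Ehf and Myc, which leaves the member as the likely nearest one there. When noncoding genes were allowed, the member was nearest for 7 of the 15, since such genes lay closer at Sox2, Sox4, Ehf, Grhl2 and Myc. Only the 3 regions between Trp63 and P3h2 had another listed region within 10 kb.

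The wider families were described by the same rule, beside the 42.7% of all coding genes with a region inside or within 100 kb. The rule counts a region for every gene within 100 kb, even where another coding gene is nearer to it. Of 18 p63 target genes, 12 (66.7%) had one. They included the membrane gene Perp, with a 451-base region across its end (centre 85 bases outside), the keratin gene Krt17, with a 143-base region 1.34 kb away, the epidermal factor gene Zfp750 and the hemidesmosome gene Col17a1, with 143-base regions inside, Runx1, with a 143-base region inside, and the chromatin organiser gene Satb1, with a 451-base region inside. Of the 12 genes, the keratin genes Krt14, Krt15 and Krt17 lie within 129 kb on chromosome 11, and their 100 kb windows share regions: 7 distinct regions stand behind the 6, 4 and 5 counted for them. In the ETS family 15 of 24 genes (62.5%) had one. Among them is Elf5, whose only region in its window is the one above Ehf. A region lay inside 7 of the 24, namely Elf2, Elk3, Elk4, Etv1, Etv5, Etv6 and Fli1, where 10.2% of all coding genes had one inside. The last was named beyond the limit of 6 genes a list, after its value was seen. Apart from Elk4 (18.9 kb), these 7 genes span 58.3 to 234 kb, against a median of 17.2 kb over all coding genes. The 10.2% is not matched for length.

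Gene length differs between the lists, and a region was found at 49.0% of all coding genes that span over 10 kb and at 31.6% of shorter ones. Genes over 10 kb made up 13 of 18 p63 targets, 19 of 24 ETS genes, 9 of 13 MYC network genes, 7 of 9 pluripotency factors, 5 of 9 luminal factors and 4 of 18 SOX genes. Both p53 family genes, all 7 grainyhead and OVOL genes and all 7 leukocyte factors were that long. So were 3 of 6 endothelial genes and 2 of 6 stromal factors.

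The partners and relatives of MYC had a region at 7 of 13 genes (53.8%), and Mlxip, which encodes a relative of MYC that senses glucose, was the only one with a region inside or within 10 kb. In the SOX family the share was 6 of 18 (33.3%), with 1 region inside Sox5 and 3 inside Sox6. These are very long genes, of 954 kb and 570 kb, against a median span of 17.2 kb over all coding genes. Among grainyhead and OVOL genes 1 of 7 (14.3%) had one. It was Grhl1, 98.8 kb away, a gene named after its value was seen. The p53 family, beside Trp63, had 1 of 2, through a region that is also counted for 1 of the SOX genes. The pluripotency factors had 3 of 9 (33.3%). Of luminal prostate factors 5 of 9 (55.6%) had a region. For most of the MYC network genes with a region, the nearest one lay nearer to another coding gene. The same held for Grhl1, the p53 family gene and all 3 pluripotency factors, and for some SOX genes and luminal factors. Together, the 100 genes of these 8 lists had a region at 50.0%. With lists this small and no test, none of the shares is called different from all coding genes.

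Genes typical of cell types that the gate should leave out were counted alike. Leukocyte factors had a region at 2 of 7 genes, endothelial genes at 2 of 6 and stromal factors at 3 of 6, where Twist2 had a 143-base region inside. The share over all coding genes was 42.7%. Some of these genes also belong to the ETS and SOX lists. Positions carry no level, so the presence of such cells was not tested.

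**Figure D4:**
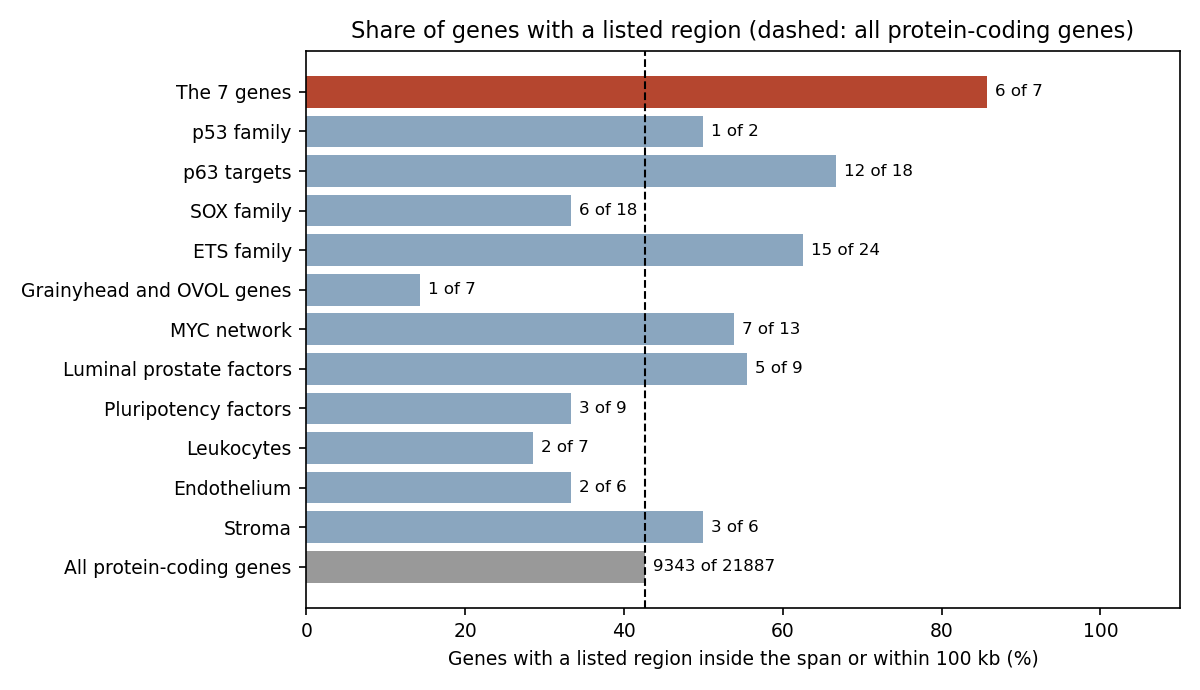
Percentage of genes with a listed region inside the span or within 100 kb. The top bar is the 7 genes (6 of 7), and the bottom bar and dashed line are all protein-coding genes (42.7%). Between them are 11 lists of related genes and of genes of other cell types. Counts stand beside the bars; p63 targets (12 of 18) and ETS genes (15 of 24) have the longest bars of the 11 lists.

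Promoters of related genes that a listed region touched were found for Etv5, Elk4 and Mlxip. The gene lists hold 114 genes, each counted once, of which 85 had a promoter entry and these 3 were touched. Only 3 members, Sox2, Sox4 and Elf3, had a promoter window (250 bases before to 50 after the start), and 0 of these were touched. Over all 32851 windows the share was 2.21%. Trp63, Ehf, Grhl2 and Myc had no promoter entry. The region across the low-coordinate end of Myc is therefore not part of this count. At Etv5, an ETS factor gene on the minus strand that responds to growth factor signalling, a 451-base region (chr16:22439557-22440007) ran over the annotated start and covered all 250 bases before it. They are shown from RefSeq (GRCm38.p6, chr16:22439571-22439820) as an ETS promoter inside a listed region, for comparison with the untouched Elf3 promoter above. Capitals mark bases inside the listed region.
Etv5: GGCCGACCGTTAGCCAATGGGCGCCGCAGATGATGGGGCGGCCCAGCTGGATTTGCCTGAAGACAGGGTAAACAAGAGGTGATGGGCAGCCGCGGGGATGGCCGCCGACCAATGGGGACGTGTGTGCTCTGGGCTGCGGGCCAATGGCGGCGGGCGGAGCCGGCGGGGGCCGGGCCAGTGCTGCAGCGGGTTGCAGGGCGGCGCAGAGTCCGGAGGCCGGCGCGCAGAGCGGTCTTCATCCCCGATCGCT

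This stretch had a GC content of 71.2% and held none of the 7 motif strings. It differed in this from the untouched Elf3 and Sox4 stretches, but not from the untouched Sox2 stretch (72.0% GC). At Elk4, a serum response cofactor gene, a 143-base region (chr1:132007890-132008032) ended 70 bases before an annotated start. At Mlxip a 143-base region (chr5:123394610-123394752) ended 46 bases before an annotated start and held 1 ETS core.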

How the data were processed

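The authors deposited 1 merged list of regions for all 6 libraries, with chromosome, start and end columns. The submitters' processing notes name BWA 0.7.17-r1188, SAMtools, HOMER 4.8 and mm10, with no order, thresholds or filters. The list was read as one of differing regions because its name holds "diff" and the notes also name a package for differential counts. Any filter before deposit decides what can appear, and a region just short of it leaves no trace.

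Starts, counted from 0 in the list, are printed from 1. Gene positions were read from RefSeq annotation of GRCm38.p6, the assembly of mm10; all 21887 protein-coding genes on chromosomes 1 to 19, X and Y formed the background. A region was placed by its centre and tied to the gene span at distance 0 inside. Distances were computed with Python 3.11.15, numpy 2.4.6 and pandas 2.3.3, and the placing was checked on simulated positions. The 7 genes, the lists and the motifs were chosen with earlier results of these data known. From each list, genes within 10 kb of a region were named, at most 6 by distance, with ties in alphabetical order; some named by this rule are not reported here. All list symbols matched the table. No comparison of inflamed with naive libraries could be fitted. Motif matches were looked up in 250 bases before each start, and Trp63, Ehf, Grhl2 and Myc had no promoter entry. The sequence of the listed regions at the 7 genes is not analysed here.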

Additional observations from a re-analysis of the deposited data

How the results depend on the processing

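The number of regions at the 7 genes follows the window, since each wider window holds the narrower one. From 15 within 100 kb it was 5 within 10 kb, 8 within 50 kb and 43 within 500 kb. It was 6 with 143-base regions alone and 9 with 451-base regions alone, and 15 with any overlap counted or with regions within 1 kb merged. Genes with a region numbered 3 within 10 kb, and 4 to 6 of 7 under the other settings. Over all coding genes the share was 15.2% within 10 kb and 81.9% within 500 kb, where members with a region numbered 6 of 7. Density was 3.34 per Mb with 143-base and 5.01 per Mb with 451-base regions, and 5.81 to 9.33 per Mb in the other windows. Allowing noncoding genes lowered the regions with a member as nearest gene from 12 to 7. The share of 451-base regions ran from 50.0% to 80.0% over windows. Windows for density and width, and width by nearest gene, were added after the data were seen. Distances to gene starts were not run, since a start was at hand for 3 of the 7 genes. No paired analysis was possible because libraries have no values of their own here, and leaving out a library was not possible for that reason.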
